A study of Mus musculus with 5 samples.

Results

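Principal cells of the collecting duct were examined in single-cell RNA sequencing of kidneys from adult mice lacking Fame (Ccdc198, listed as ccdc198 in the count matrix) and from their WT littermates. Cells were chosen by the name CD PC, which the authors gave to a cluster of the integrated data in their annotation. They numbered 445 of 14197 cells (3.13%). The KO group held 3 libraries, from female mice, male mice and a mix of both sexes, with 64, 53 and 132 principal cells (249 in all). The WT group held 2 libraries, from female mice and a mix of both sexes, with 82 and 114 principal cells (196 in all). All mice were adults of the FVB/Ant background, and the KO allele was a CRISPR insertion that places a double stop codon after the start codon of Fame. There was no male WT library, and how many mice each library holds is not stated in the labels or methods. The libraries labelled as mixed (KO mix and WT mix) were given as run 3 in the annotation and the other 3 as run 2. The annotation does not say whether a run was a run of sequencing or another batch. Run and the mixing of sexes cannot be told apart, while both genotypes were present in each run.

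Principal cells line the collecting duct together with the acid-base transporting intercalated cells. Vasopressin binds their V2 receptor, raises cAMP and brings the water channel AQP2 to the apical membrane, and water then leaves through AQP3 and AQP4 on the basolateral side. Aldosterone acts through the mineralocorticoid receptor to increase sodium entry through the epithelial sodium channel ENaC and potassium secretion through ROMK, and HSD11B2 keeps glucocorticoids from occupying that receptor by inactivating them.

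The principal cells carried 281267, 250031 and 465324 UMIs (unique molecular identifiers, 1 per captured transcript) in the KO female, KO male and KO mix libraries, against 444236 and 344759 UMIs in the WT female and WT mix libraries. Their median UMIs per cell were 3110 to 3237.5 in KO and 2715.5 to 3210 in WT libraries. The median mitochondrial share was 9.57 to 24.1% in KO and 8.95 to 24.0% in WT libraries, and in both genotypes the upper value was that of the run 3 library. Of the WT female UMIs, 14.3% came from 1 cell of 63425 UMIs, where the next largest principal cell had 20406. This largest cell held 61 UMIs of Aqp2 and also UMIs of Lrp2, Umod and Slc12a1, markers of other nephron segments. Xist was detected in 64.1, 0 and 56.8% of principal cells in the KO female, KO male and KO mix libraries and in 73.2 and 22.8% in the WT female and WT mix libraries, and Y-linked genes were found in 0, 64.2 and 14.4% in KO and 0 and 30.7% in WT, which follows the sex labels. The KO mix library had the larger share of cells with Xist and the WT mix library the larger share with Y-linked genes. The counts of the edited gene could not check the genotype, because the insertion leaves the 3′ end in place for 3′ counting: ccdc198 was at 209.8, 419.9 and 191.3 CPM (counts scaled to the UMI total of the library's principal cells) in KO and 254.4 and 255.3 CPM in WT libraries.

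The cluster was named from marker genes, so the marker shares here describe it and are no separate support for the label. At least 1 of Aqp2, Aqp3 and Hsd11b2 was found in 97.8% of the principal cells and all 3 in 80.2% (357 cells), while 10 cells had none. Among glomerular endothelial cells, which should lack these genes, 9.79% had at least 1 and 0.319% all 3, at a median of 1679.5 UMIs per cell against 3006 in principal cells. All 3 were also present in 41.0% of the cells named CD IC/CD Trans, the intercalated and transitional cells of the duct, and in 2.71% of the cells of the distal convoluted tubule (DCT). To set types beside each other at 1 depth, the share of cells expected to show a UMI at 1000 UMIs per cell was computed. At this depth Aqp2 would be seen in 57.1, 66.2 and 92.9% of KO female, KO male and KO mix principal cells and in 65.5 and 90.3% of WT female and WT mix cells, against 0.405 to 4.31% of glomerular endothelial cells across libraries. The corresponding shares in principal cells were 59.7 to 73.0% for Aqp3, 66.0 to 91.0% for Hsd11b2 and 59.3 to 80.0% for Fxyd4, and only 11.9 to 23.2% for Aqp4 and 16.6 to 19.4% for Avpr2, the vasopressin V2 receptor. Every one of these ranges lay above those of glomerular endothelial and red blood cells.

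**Figure D1:**
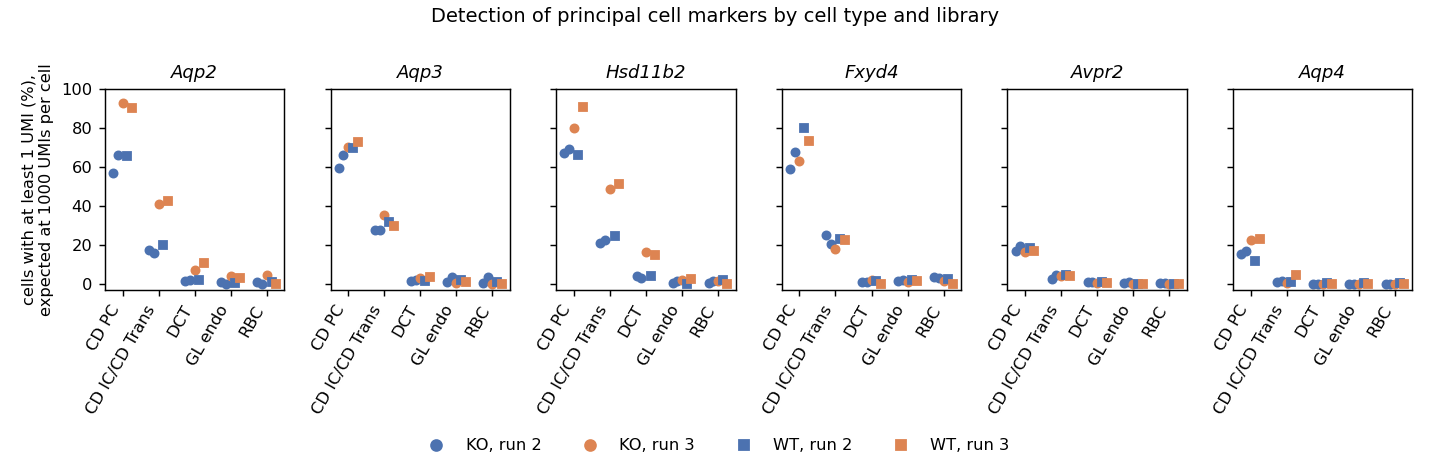
Share of cells with at least 1 UMI of each marker, in percent, expected at a depth of 1000 UMIs per cell, for principal cells (CD PC) and 4 other types; each point is 1 library, circles KO and squares WT, blue run 2 and orange run 3. Aqp2 in principal cells lay at 90.3 and 92.9% in the run 3 libraries and at 57.1 to 66.2% in the run 2 libraries.

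The genes with the highest mean CPM in principal cells relative to all other cells were, in order, Aqp2 (94.5 times), Fxyd4 (82.2 times), Aqp4 (48.3 times), Hsd11b2 (40.4 times), Btc (39.3 times), Kcne1 (37.2 times), Aqp3 (33.4 times), Avpr2 (30.2 times), Scnn1g (27.2 times) and Krt18 (24.98 times), among 839 genes with at least 100 CPM in every library's principal cells. These ratios describe a cluster that was drawn from the same genes and were not tested. They span the water channels, the vasopressin receptor, 1 ENaC subunit (Scnn1g, with Scnn1b following at 24.9 times) and FXYD4, a regulator of the sodium pump. Some single types came closer than all other cells together. Scnn1g averaged 307.6 CPM in principal and 180.1 CPM in CD IC/CD Trans cells, Scnn1b 286.5 and 178.7, and Hsd11b2 1870 and 940.8. For Aqp2 these values were 3774 and 785.3 CPM, and for Aqp4 463.6 and 41.5 CPM. In the proximal tubule cluster PT f, Aqp4 averaged 305.0 CPM over 4 libraries. Its WT female value there (484.8 CPM) was above that of principal cells (229.6 CPM). Betacellulin (Btc), an EGF receptor ligand, was at 138.7, 244.0 and 318.1 CPM in KO female, KO male and KO mix cells and at 119.3 and 287.2 CPM in WT female and WT mix cells. Lower in the ranking came, among others, Gstm2, Cldn4, Arhgdib, Lgals3, Mal2, Phactr1 and Ehf, the last an epithelial ETS factor at 17.8 times.

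Aqp2 and Aqp3, whose levels behaved differently between the libraries, are shown with their promoters (RefSeq on GRCm38.p6, 250 bases before to 50 after the start). Capitals mark matches to the cAMP response element half-site CGTCA and to the GATA motif AGATAA, both searched on both strands without overlap between them; of 32851 promoters of this length, 20.8% held the first and 11.2% the second. The Aqp2 promoter (chr15:99578806-99579105, plus strand) held 1 of each, the GATA match reading TTATCT on the strand shown. The Aqp3 promoter (chr4:41098134-41098433, minus strand) held neither string, and Hsd11b2 had no entry. Any relation of these strings to the levels in the libraries was not tested.
Aqp2: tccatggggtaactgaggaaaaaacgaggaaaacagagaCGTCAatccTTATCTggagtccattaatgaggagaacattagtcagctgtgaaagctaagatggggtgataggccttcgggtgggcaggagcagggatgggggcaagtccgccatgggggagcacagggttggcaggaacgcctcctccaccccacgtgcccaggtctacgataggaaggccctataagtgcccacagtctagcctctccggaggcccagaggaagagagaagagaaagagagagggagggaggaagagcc
Aqp3: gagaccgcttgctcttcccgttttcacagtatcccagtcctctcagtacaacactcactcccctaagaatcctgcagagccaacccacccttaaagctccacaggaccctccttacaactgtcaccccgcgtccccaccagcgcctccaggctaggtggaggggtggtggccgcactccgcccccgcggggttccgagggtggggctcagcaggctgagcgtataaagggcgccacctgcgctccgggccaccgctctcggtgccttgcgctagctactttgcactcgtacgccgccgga

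Aqp2 (chromosome 15, 99579055 to 99584547, GENCODE vM21 on GRCm38) reached 1575, 1532 and 7401 CPM in the KO female, KO male and KO mix principal cells, against 1447 and 6915 CPM in the WT female and WT mix principal cells. The libraries of run 3 were high and those of run 2 low in both genotypes, and the genotypes overlapped. Aqp3, the basolateral water channel (chromosome 4, 41092722 to 41098183), was at 1248, 1764 and 1840 CPM in KO and 1177 and 1793 CPM in WT libraries. Hsd11b2 was at 1312, 1308 and 2330 CPM in KO, against 1035 and 3368 CPM in WT libraries, again with both run 3 libraries above the rest. Fxyd4 ran the other way, at 3577, 4779 and 2080 CPM in KO and 3005 and 2700 CPM in WT libraries. Aqp4 was lowest in the WT female library, with 487.1, 411.9 and 563 CPM in KO and 229.6 and 626.5 CPM in WT libraries. Avpr2 was the steadiest of the markers, at 177.8, 204 and 202 CPM in KO and 164.3 and 205.9 CPM in WT libraries.

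**Figure D2:**
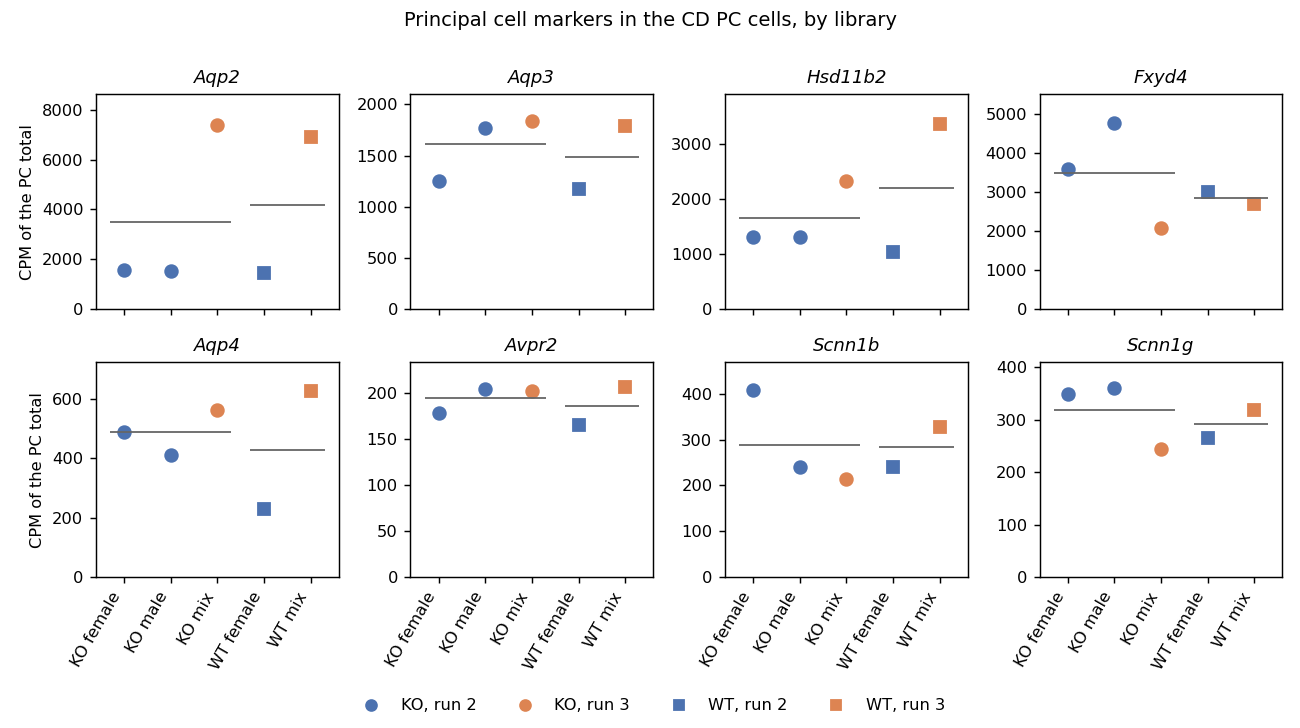
CPM of 8 principal cell markers in the summed principal cells of each library; circles are KO and squares WT libraries, blue run 2 and orange run 3, and grey lines the mean of each genotype (n = 3 KO, n = 2 WT). Aqp2 lay at 6915 and 7401 CPM in run 3 and at 1447 to 1575 CPM in run 2, while the genotypes overlapped in every panel.

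The principal cells were not uniform. A share of them carried Calb1, the calcium-binding protein of the connecting tubule and DCT, which would be seen in 37.5 to 51.4% of principal cells at 1000 UMIs per cell. A split of the cells by whether they kept a Calb1 UMI after thinning to 1000 UMIs, chosen after the values were seen and therefore not tested, gave 28, 29 and 48 cells with Calb1 in the KO female, KO male and KO mix libraries and 40 and 54 in the WT female and WT mix libraries, against 36, 24, 84, 42 and 60 cells without it. Aqp4 was lower in the cells with Calb1 in 5 of 5 libraries: the cells without it had 6.42 to 14.5 times its CPM. In the KO female library, for example, Aqp4 was at 69.2 CPM with Calb1 and 928.2 CPM without. Further calcium handling genes of the connecting tubule went with Calb1 in 5 of 5 libraries, the intracellular calcium carrier S100g (3.78 to 8.81 times higher in cells with Calb1) and the sodium-calcium exchanger Slc8a1 (2.70 to 10.6 times).
Scnn1g (1.45 to 2.09 times) and Hsd11b2 (1.14 to 1.94 times) were also higher in the cells with Calb1 in 5 of 5 libraries, whereas Aqp2 and Fxyd4 were lower in 4 of 5. Slc12a3, the defining transporter of the DCT, was at 0 to 26.9 CPM in the cells with Calb1 after thinning. Without thinning it was at 131.8 CPM (49 UMIs) in the WT female cells with Calb1, of which 32 UMIs came from the cell of 63425 UMIs, and at 6.01 to 18.2 CPM in those of the other libraries. The cells with Calb1 were the deeper ones in the KO female library (median 4168 UMIs with Calb1 and 2987 without) and the shallower ones in the KO male library (2676 and 3948), and median depths were 2688.5 to 3157.5 UMIs with Calb1 and 2804 to 3450 without in the other 3 libraries. Median doublet scores were 0.0806 to 0.136 with Calb1 and 0.0975 to 0.134 without. Without thinning, Aqp4, S100g, Slc8a1, Scnn1g and Hsd11b2 kept these directions in 5 of 5 libraries, but the Aqp4 ratio spread to 1.66 to 16.6 times (median 3.69, against 9.52 after thinning). S100g, which was abundant in the DCT, would be seen at 1000 UMIs in 56.0, 56.1 and 33.8% of KO female, KO male and KO mix principal cells and 61.2 and 36.4% of WT female and WT mix principal cells, against 39.5, 61.3, 20.9, 40.6 and 20.8% of the glomerular endothelial cells of the same libraries. The share was higher in principal cells in 4 of 5 libraries, and the S100g level was 3731 CPM or more in principal cells, against at most 1090 CPM in glomerular endothelial cells. Calb1 (3.84 to 6.77%) and Slc8a1 (2.24 to 3.08%) were rare in glomerular endothelial cells. All of these genes were also present in CD IC/CD Trans cells. Their mean CPM there was 16080 for S100g, 889.1 for Calb1 and 657.3 for Slc8a1, against 12820, 1033 and 511.3 in principal cells.

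**Figure D3:**
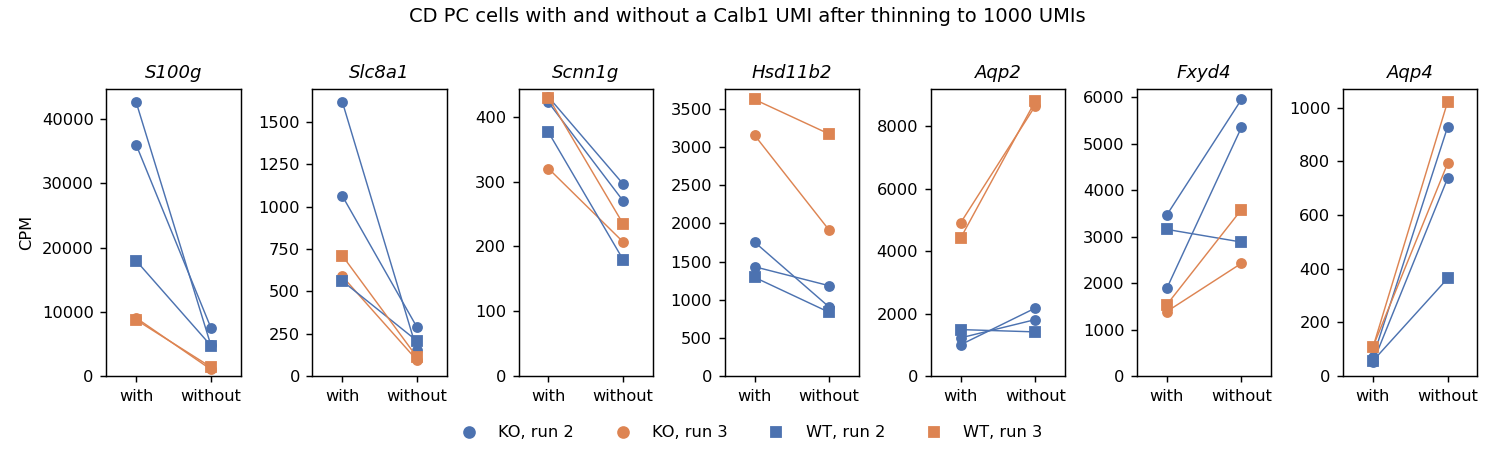
CPM of 7 genes in principal cells with and without a Calb1 UMI after thinning to 1000 UMIs; each line joins the cells of 1 library, circles KO and squares WT, blue run 2 and orange run 3. Aqp4 rises to the right in 5 of 5 libraries and S100g, Slc8a1, Scnn1g and Hsd11b2 fall in 5 of 5.

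Whether loss of Fame altered the number of principal cells was asked first. They made up 2.17% (95% exact binomial interval 1.68 to 2.77), 2.95% (2.22 to 3.85) and 3.70% (3.11 to 4.37) of the KO female, KO male and KO mix cells, against 3.23% (2.58 to 4.00) and 3.40% (2.81 to 4.07) of the WT female and WT mix cells; the intervals cover counting error only. The KO libraries averaged 2.94% ± 0.764 (SD, n = 3) and the WT libraries 3.32% ± 0.119 (SD, n = 2), and the groups overlapped. The difference of -0.372 percentage points did not pass an exact two-sided permutation test over libraries (p = 0.7, with 0.1 the smallest that 5 libraries allow). The edgeR quasi-likelihood test on cell numbers gave a log2 fold change of -0.17 (SE 0.40, 95% interval -1.20 to 0.86, adjusted p = 0.892 over 19 cell types), so that changes of either sign within this interval were not excluded. Without the KO female library the value was 0.0067.

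No gene passed the comparison of KO with WT principal cells. Of 5172 genes that passed the filter on low counts, edgeR called 0 at an adjusted p of 0.05 (0% of those tested), and 31 had an unadjusted p under 0.05. DESeq2 gave 0 calls with 14 such genes, and limma-voom 0 calls with 32. Without the WT mix library 10 genes were called, all lower in KO (C3, Enpp2, Ifitm1, Lcn2, Ltf, Pck1, Plac8, Prap1, Slc12a3 and Sprr2f), and without the WT female library 1 was (Cd74, lower). Each of these fits has 1 WT library, which is assumed to vary like the KO libraries, and 334 of 356 Lcn2, 299 of 505 Pck1, 31 of 33 Plac8 and 32 of 49 Slc12a3 UMIs of the WT female library came from 1 cell each. The principal cell markers had small differences with wide intervals. The log2 fold changes of KO over WT were -0.23 (95% interval -2.08 to 1.62) for Aqp2, 0.17 (-0.73 to 1.08) for Aqp3, -0.36 (-1.56 to 0.84) for Hsd11b2 and 0.12 (-0.62 to 0.85) for Avpr2. With run in the fit, that of Aqp2 was 0.12 (SE 0.19), and it was 1.18 without the WT mix library. For the ENaC subunits they were -0.17 (SE 0.45) for Scnn1a, 0.08 (SE 0.41) for Scnn1b and 0.17 (SE 0.36) for Scnn1g. These p-values measure the spread between libraries, which may hold technical as well as animal differences.

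The remaining members of the vasopressin and aldosterone pathways were read in the same way, and none was called in either direction. The V2 receptor's downstream genes Gnas (the stimulatory G protein), Prkar1a (a regulatory subunit of protein kinase A) and Creb3l2 (a transcription factor) had log2 fold changes of -0.05, -0.13 and -0.49. The list of 11 tested water transport genes had a median of -0.16, beside 0.01 over all genes tested. In the aldosterone list of 16 tested genes the median was -0.02, with the receptor Nr3c2 at -0.10, its target kinase Sgk1 at 0.12 and the ENaC-directed ubiquitin ligase Nedd4l at 0.04. The potassium channels had a median of 0.06 over 6 genes, Kcnj1 (ROMK) being at 942.2, 1056 and 582.4 CPM in KO and 945.4 and 684.5 CPM in WT libraries. The 12 collecting duct transcription factors had a median of 0.04; Tfcp2l1, which is needed for the split of duct cells into types, was at 768, 739.9 and 752.2 CPM in KO and 693.3 and 841.2 CPM in WT libraries. Gata3, Gata2 and Elf5 had log2 fold changes of 0.06, -0.20 and 0.61. The junction, adhesion and keratin genes had a median of 0.01 over 13 genes.

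The study also asked about iron handling, and of the iron-related genes and ccdc198, 0 of 8 were called. Fth1, the ferritin heavy chain, was at 1571, 1692 and 3389 CPM in KO and 1877 and 2898 CPM in WT libraries (log2 fold change -0.08, SE 0.46). Slc25a39, a mitochondrial carrier, was at 56.9, 48.0 and 116 CPM in KO and 60.8 and 171.1 CPM in WT libraries (log2 fold change -0.56, SE 0.50), and it was 0.26 without the WT mix library. Tfrc, the transferrin receptor, was at 56.9, 71.99 and 58.0 CPM in KO and 42.8 and 66.7 CPM in WT libraries, and ferroportin (Slc40a1) at 53.3, 28.0 and 62.3 CPM in KO and 49.5 and 31.9 CPM in WT libraries. Lcn2, an iron carrier of injured tubules, had 8, 19 and 36 UMIs in KO and 356 and 17 UMIs in WT libraries, of which 334 came from a single WT female cell. Its log2 fold change of -2.83 (SE 0.93, adjusted p = 1.0) was 0.41 without the WT female library and 0.68 in the cells with a UMI of Aqp2.

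Some genes stood near the low end of the unadjusted p-values, and each has an adjusted p of 1.0 by edgeR. Trmt112, a partner of methyltransferases, was at 64.0, 68.0 and 81.7 CPM in KO and 29.3 and 31.9 CPM in WT libraries (log2 fold change 1.25, SE 0.38, unadjusted p = 0.0096). Tomm70a, an import receptor of the mitochondrial outer membrane, was at 28.4, 28.0 and 40.8 CPM in KO and 74.3 and 87.0 CPM in WT libraries (log2 fold change -1.25, SE 0.37, unadjusted p = 0.0084). Rcn1, a calcium-binding protein of the endoplasmic reticulum, was at 17.8, 24.0 and 19.3 CPM in KO and 47.3 and 52.2 CPM in WT libraries. Eif4ebp1, the inhibitor of cap-dependent translation, was at 46.2, 40 and 45.1 CPM in KO and 20.3 and 23.2 CPM in WT libraries. The others higher in KO by this ranking were Nupr1, Tuba1a, Aqp6, Haghl, Urod, Akr1b3, Golm1 and Fam199x, with log2 fold changes of 0.95 to 5.62. Those lower in KO were Lcn2, 5930430L01Rik, Dnase1, Slc5a2, Slc12a1, Pck1, Slc5a12 and Dnajc13, with log2 fold changes of -2.83 to -1.03.

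Several of these values rested on few cells. Nupr1, a stress-induced chromatin protein, had 1, 38 and 123 UMIs in the KO female, KO male and KO mix libraries and 0 and 2 UMIs in the WT libraries; 35 of the 38 were in 1 KO male cell and 63 of the 123 in 1 KO mix cell. Akr1b3, the sorbitol-producing aldose reductase, had 44, 138 and 593 UMIs in KO and 75 and 75 UMIs in WT libraries, and 5 cells held 471 of the 593. Slc14a2, the urea transporter of the inner medullary duct, was found in 0, 2 and 7 KO cells and 2 and 1 WT cells. Pck1, Slc12a1 and Lrp2, genes of the proximal tubule and the loop of Henle, had 299 of 505, 50 of 66 and 135 of 211 UMIs of the WT female library in the cell of 63425 UMIs, and without that cell the log2 fold change of Slc12a1 was -0.51. The summed CPM of 5 loop of Henle markers was 248.9 to 543.9 in KO and 577.2 to 612.3 in WT libraries, and that of 6 proximal tubule markers 1145 to 7547 in KO and 2566 to 6146 in WT libraries. Intercalated cell markers summed to 86.0 to 196 CPM in KO and 52.2 to 121.6 CPM in WT libraries over 8 genes, with Foxi1, their defining factor, at 0 to 3.56 CPM in KO and 0 to 2.25 CPM in WT libraries. Red blood cell markers (5 genes) summed to 10.8 to 4551 CPM in KO and 5.80 to 10740 CPM in WT libraries. The 5 markers of T and NK cells summed to at most 2.15 CPM, with Cd3e, Cd3d, Nkg7 and Ccl5 at 0, and the part of all these transcripts in the KO differences was not tested.

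**Figure D4:**
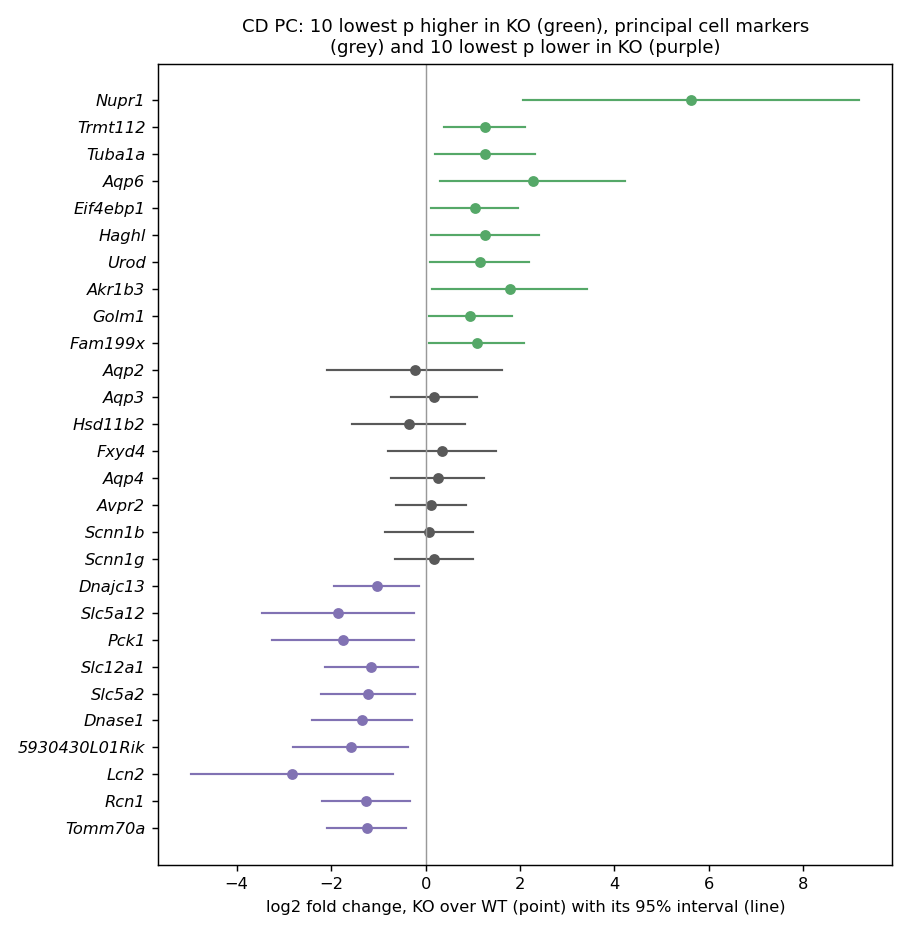
Log2 fold change of KO over WT principal cells (points) with 95% intervals (lines) from edgeR for the 10 genes of lowest p higher in KO (green), 8 principal cell markers (grey) and the 10 genes of lowest p lower in KO (purple). The marker intervals include 0, and none of the 28 genes passed an adjusted p of 0.05.

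With the sex label of the libraries as a term (female, male, mixed), 6 genes were called: Klk1, Nupr1, S100a6 and Spp1 higher and Hbb-bs and Slc12a1 lower in KO. In this fit the KO male library informs no difference, since no WT library matches it. The genotype effect thus rests on the female pair and the mixed pair of libraries, with 1 residual degree of freedom. With run as a term in place of the sex label, 0 genes were called. Klk1, the kallikrein of the connecting tubule, had 4621, 1438 and 826 UMIs in KO and 1447 and 123 UMIs in WT libraries, with 1389 of the KO female UMIs in 1 cell. Spp1 (osteopontin) had 1188, 1337 and 1314 UMIs in KO and 1249 and 361 UMIs in WT libraries, with 859 of the KO mix UMIs in 1 cell. S100a6 was found in 7.81, 11.3 and 9.85% of KO female, KO male and KO mix cells and in 8.54 and 5.26% of WT female and WT mix cells, with 104 of 215, 192 of 427 and 82 of 196 UMIs in 1 cell each in KO and 67 of 193 in 1 WT female cell. Hbb-bs had 1393 of its 3708 WT female UMIs in 1 cell. Both Klk1 and Spp1 were also seen in glomerular endothelial cells, at 193.9 to 559 CPM for Klk1, against 356.8 CPM or more in principal cells, and at 215.3 to 2006 CPM for Spp1, against 1047 CPM or more in principal cells. Neither was highest in principal cells. Klk1 averaged 5514 CPM there, against 9773 in CD IC/CD Trans, 13690 in DCT and 1685 in loop of Henle cells. Spp1 averaged 3251 CPM in principal cells, against 5306, 5952 and 6060 CPM in those types. Without the term Klk1, Spp1 and S100a6 had log2 fold changes of 2.17 (Klk1), 1.13 (Spp1) and 1.87 (S100a6) and were not called, the adjusted p of each being 1.0.

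To ask whether the response of principal cells differed from that of neighbouring cells, the genotype effect was compared within libraries with that in the 554 DCT cells and the 354 CD IC/CD Trans cells. Against the DCT, 4 of 6262 genes were called (0.0639%), all with a lower KO effect in principal cells. These were Hbb-bs (difference -2.04, SE 0.32, adjusted p = 0.0095), Slc12a1 (-2.33, SE 0.40, adjusted p = 0.022), Cyp4a14 (-3.37, SE 0.61, adjusted p = 0.028) and Hba-a1 (-1.66, SE 0.32, adjusted p = 0.039), by edgeR on the log2 scale. They are globins, a loop of Henle transporter and a proximal tubule cytochrome P450, and no principal cell marker was among them. Without the WT female cell of 63425 UMIs only the globins were called, and without the WT female library or the KO male library 0 were, while 24 were called without the WT mix library. Against the CD IC/CD Trans cells, 0 of 6464 genes were called (0%), with 306 at an unadjusted p under 0.05, and limma-voom also called 0, with 346.

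More genes of the principal cells differed between the runs of the annotation than between genotypes. With genotype in the fit, 1183 of 5172 genes (22.9%) differed between run 3 (KO mix and WT mix) and run 2 (KO female, KO male and WT female), 526 higher (10.2%) and 657 lower (12.7%) in run 3. DESeq2 called 315. Without the KO mix library 67 were called, without the WT female library 589 and without the WT mix library 569. With library totals in place of TMM scaling, the median gene moved to 0.18 and the calls divided into 786 higher and 487 lower.

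Of the 8 principal cell markers, 2 were higher and 1 was lower in run 3, where 22.9% of all genes tested were called. Aqp2 was 2.10 higher on the log2 scale (SE 0.19, adjusted p = 1.6e-07), with values of 2.05 to 2.31 across the alternatives. Hsd11b2 was 1.06 higher (SE 0.21, adjusted p = 0.00091) and lost its call without either WT library, at 0.63 without the WT female and 0.64 without the WT mix library. Fxyd4 was -0.79 (SE 0.23, adjusted p = 0.020), and it was -0.22 and not called without the KO mix library (-0.85 and not called without the KO female library). Aqp3 was at 0.27 (SE 0.19, adjusted p = 0.338), Aqp4 at 0.65 (SE 0.24, adjusted p = 0.068) and Avpr2 at 0.03 (SE 0.22, adjusted p = 0.930), none of them called. The run difference of Aqp2 was not particular to principal cells: Aqp2 reached 175 and 158 CPM in the DCT cells of the KO mix and WT mix libraries, against 7.19 to 13.3 CPM in the run 2 libraries, and 37.6 and 84.1 CPM in glomerular endothelial cells, against 7.87 to 9.09 CPM. The log2 run difference was smaller in principal cells than in the DCT for Aqp2 (principal cells minus DCT -2.02, SE 0.28, adjusted p = 9.1e-08) and for Hsd11b2 (-3.16, SE 0.24, adjusted p = 5.1e-19), 2 of 131 such genes among 6262 (2.09%). In cells with at most 25% mitochondrial UMIs, 10 such genes were called, and for Aqp2 the difference was -1.02 and not called.

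Along the pathways of the principal cell, run differences went both ways. In the water list, Gnas (0.79) and Adcy6 (1.07), an adenylate cyclase, were higher and Pde4d (-1.31), which breaks down cAMP, was lower in run 3, so that 3 of 11 were higher and 1 lower with Aqp2 included, beside 10.2% and 12.7% of all genes tested. Gnas was not called without the KO mix, the WT female or the WT mix library (0.64 to 1.02), nor was Adcy6 without these or the KO male library (0.70 to 1.51), nor Pde4d without the KO female, KO mix, WT female or WT mix library (-1.5 to -1.04). In the sodium list 1 of 16 was higher and 4 were lower, beside 10.2% higher and 12.7% lower over all genes: besides Fxyd4 these were Sgk1 (-0.93), Scnn1a (-0.78) and the pump subunit Fxyd2 (-0.74). Sgk1 was at 380.4 and 374.2 CPM in the KO mix and WT mix libraries, against 579.9 to 696.8 CPM in run 2. Of 6 potassium channels, Kcnj1 (-0.79) and Kcnj10 (-0.87) were lower, beside 12.7% of all genes tested. Without the KO mix library none of the genes Sgk1, Scnn1a, Fxyd2, Kcnj1 and Kcnj10 was called, at -0.95 to -0.28.

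Among the 12 transcription factors, Pax2 (1.75) and Hoxd8 (1.10), both factors of the developing duct, were higher and Mecom (-0.75) was lower in run 3. Over all genes tested 10.2% were higher and 12.7% lower, 22.9% in all. The called shares of the transcription factor, junction and iron lists lay near that 22.9%. Pax2 was at 165.5 and 165.3 CPM in the KO mix and WT mix libraries, against 40 to 47.3 CPM in run 2. Of 5 Notch pathway genes, the receptor Notch2 (-1.75) and its target Hes1 (-1.51) were lower; Hes1 was at 236.4 and 232 CPM in run 3, against 380 to 718.2 CPM in run 2. Epcam (0.91) and Cdh16 (0.58, and not called at 0.28 to 0.97 without the KO male, KO mix, WT female or WT mix library), both adhesion molecules, were higher and Krt19 (-1.38) was lower among 13 junction genes. Slc25a39 (1.15, and not called at 0.93 to 1.42 without the KO mix, WT female or WT mix library) and Fth1 (0.72) were higher among 8 genes of the iron list. Hoxd8 was also not called without either WT library (0.90 and 0.92), nor Krt19 without the KO male library (-0.88). Without the KO mix library, Pax2 (1.73), Hoxd8 (1.38), Mecom (-0.40), Hes1 (-1.61), Epcam (0.70), Krt19 (-0.94), Fth1 (0.56) and Slc25a39 (1.42) kept their direction and were not called.

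Among the immediate early and heat shock genes, 14 of 22 tested members were higher in run 3 and 0 lower, against 10.2% of all genes, with a median of 0.88 beside 0.01 over all genes. Jund was at 664.1 and 902.1 CPM in the KO mix and WT mix libraries, against 96.0 to 156.4 CPM in the run 2 libraries (log2 fold change 2.49, SE 0.21). Junb (1.69), Zfp36 (1.22), Nr4a1 (1.87) and the heat shock protein genes Hspa1b (2.08) and Hspb1 (1.503) went the same way, whereas Hspa8 (-0.05) and Atf3 (0.24) were not called. Without the KO mix library only Jund, Junb and Nr4a1 of the 14 were called, and the other members lay at 0.41 to 1.92. Nr4a1 was not called without the WT female (1.09) or the WT mix library (1.11). The same list had 20 of 22 members below 0 in KO over WT, beside 2512 of 5172 genes tested. Its median was -0.41 with 0 called, and -0.20 with run in the fit. Run 3 held 1 library of each genotype, out of 3 KO and 2 WT libraries. Of the 5 nuclear and rRNA-derived transcripts, 4 were lower and 1 higher in run 3, beside 12.7% lower and 10.2% higher over all genes tested. The nuclear RNA Malat1 had a run difference of -1.54 (SE 0.26), and was not called without the KO mix (-1.74), the WT female (-1.38) or the WT mix library (-1.36). Of the 13 mitochondrially encoded genes 6 were higher and 2 lower, beside the same shares. They ran from mt-Nd1 (2.16) to mt-Atp8 (-3.25), so that members of 1 genome moved in opposite directions. Without Malat1 and the mitochondrial genes 1157 genes were called, and with cells of at most 25% mitochondrial UMIs 1045. What the runs differed in, beyond the mitochondrial share and the mixing of sexes given above, was not tested.

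Of the 8 tested signals and receptors, the prostaglandin receptor Ptger1 (1.44) and the Wnt ligand Wnt9b (2.19) were higher, and Spp1 (-1.19) and the prorenin receptor Atp6ap2 (-0.97) lower in run 3. Over all genes tested, 10.2% were higher and 12.7% lower. Ptger1 was not called without either WT library (0.76 and 0.77), Atp6ap2 not without the KO mix library (-0.99), and Spp1 not without the KO mix (-1.49) or the WT mix library (-0.95). Wnt9b was found at 47.3 and 34.8 CPM in the KO mix and WT mix libraries, against 0 to 16.0 CPM in run 2. This is a low level, and whether its call holds with a library left out was not examined. Of 7 osmolyte and urea genes 1 was lower, the chaperone Clu (-0.78, and -0.24 and not called without the KO mix library). In KO over WT the signal list had a median of 0.21 and the osmolyte list of 0.49, with 0 called in each.

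**Figure D5:**
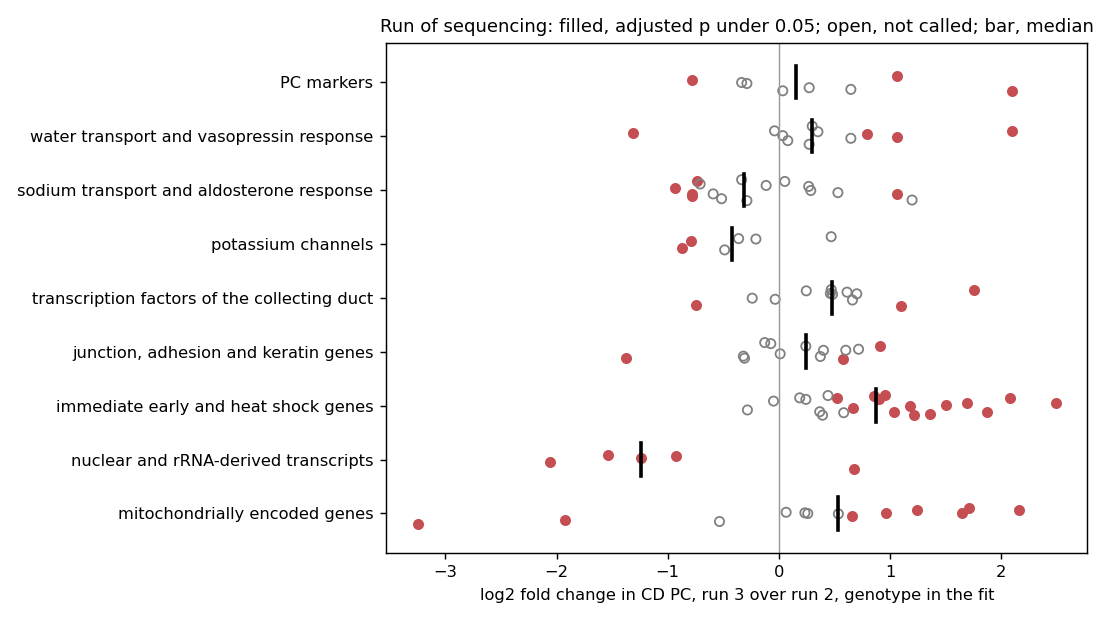
Log2 fold change of run 3 over run 2 in principal cells, with genotype in the fit, for the tested genes of 9 lists; each point is 1 gene, filled where the adjusted p was under 0.05, and bars are list medians. The immediate early and heat shock genes have a median of 0.88, with 14 of 22 called higher, beside 10.2% of all genes tested. The mitochondrially encoded genes spread from -3.25 to 2.16.

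Outside the lists, the genes of lowest p between the runs were divided in direction. Cited2, a CBP/p300-binding regulator, was at 356.7 and 351 CPM in the KO mix and WT mix libraries, against 42.7 to 56.0 CPM in run 2 (log2 fold change 2.71), and Ptms (parathymosin) had a log2 fold change of 2.31. Cycs (cytochrome c) was at 365.3 and 498.9 CPM in run 3, against 1508 to 1794 CPM in run 2 (log2 fold change -2.16). Ndufa5, a subunit of respiratory complex I (-1.93), Tmem52b (-2.14) and Rbis (-2.98) were also lower in run 3.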

How the data were processed

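Kidneys were dissociated with collagenase P and trypsin, and single-cell 3′ libraries were made with 10x Chromium chemistry by the authors. Per the authors' methods, reads were processed with Cell Ranger 4.0.0 against mm10 and filtered and integrated with Seurat 3.2.2.9001: cells with fewer than 1000 UMIs or more than 50% mitochondrial UMIs and genes in fewer than 3 cells were removed. The deposited table holds raw UMI counts per gene and cell. The annotation deposited by the authors gives each cell's library, run, cell type, mitochondrial percent and Scrublet doublet score, which were used as given; doublets were not removed further. Of the 14197 cells, 50 had a barcode found in more than 1 library, 3 of them principal cells.

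Counts of the 445 principal cells were summed per library and tested with edgeR 4.0.16 in R 4.3.3 (TMM, filterByExpr, robust quasi-likelihood fit, two-sided, Benjamini-Hochberg adjusted p of 0.05), genotype being the only term. SE values are the log2 fold change divided by the root of the F statistic. The study's methods tested single cells; sums per library were used because cells of 1 library are not replicates. Interaction tests used library as a block. Cell numbers were tested over 19 types. DESeq2 1.42.0 and limma 3.58.1 were alternatives, and the scripts were checked on simulated counts. Principal cells per library numbered at least 53. CPM is computed here from the deposited counts. Genes were named by fixed lists and as the 10 of lowest p in each direction (comparison of genotypes) or the 10 of lowest p (runs); Klk1, S100a6 and Spp1 and the genes of the Calb1 split beyond the lists were chosen after their values were seen. The members and lists were chosen with earlier results of these data known. Female and mixed libraries of both genotypes share a label; their deviations from the genotype means had correlations of 0.412 and 0.673 over 5172 genes, with only 2 such pairs, and the labels do not say that these libraries were prepared together.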

Additional observations from a re-analysis of the deposited data

Results flagged for a closer look

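The genotype effect differed between principal cells and DCT cells, by a test of the difference itself, for Hbb-bs (-2.04 on the log2 scale), Slc12a1 (-2.33), Cyp4a14 (-3.37) and Hba-a1 (-1.66). Slc12a1 and Cyp4a14 were not called without the largest WT female cell, and none of these genes was called without the KO male library. The difference between runs was smaller in principal cells than in DCT cells for Hsd11b2 (-3.16) and Aqp2 (-2.02), tested in the same way. That of Aqp2 was -1.02 and not called in cells with at most 25% mitochondrial UMIs. In principal cells Hbb-bs had 3342, 1092 and 4.30 CPM in the KO female, KO male and KO mix libraries, against 8347 and 2.901 CPM in the WT female and WT mix libraries, so that its level followed the run. Cyp4a14 had 32.0, 0 and 58.0 CPM in KO, against 121.6 and 17.4 CPM in WT libraries. Their sources were not tested.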

How the results depend on the processing

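The count of genes called between KO and WT was 2 without a filter on low counts (Arg1 and Ifitm1) and 6 with the sex label as a replicate block, and 0 under the other alternatives that keep all libraries; leaving out 1 library gave 0 to 10 (10 without the WT mix library). For the genotype effect in principal cells against the DCT, 11 genes were called with no filter, 2 without the largest WT female cell and 0 to 24 with 1 library left out; against CD IC/CD Trans cells, 9 with no filter and 0 to 5 with 1 library left out. Between runs, DESeq2 called 315, and leaving out 1 library gave 67 to 1159; for the run difference against the DCT, 10 were called at up to 25% mitochondrial UMIs and 22 to 161 with 1 library left out. The KO log2 fold change changed sign with the replicate block for Aqp2 (0.12), Fxyd4 (-0.054) and ccdc198 (-0.34), with run as a term for Aqp2 (0.12), in cells with a UMI of Aqp2 for Lcn2 (0.68) and without the largest WT female cell for Fth1 (0.014). With 1 library left out, the values that changed sign ranged over -0.37 to 0.0067 for the principal cell number, -1.35 to 1.18 for Aqp2, -0.036 to 0.43 for Aqp3, -0.93 to 0.62 for Hsd11b2, -0.25 to 1.05 for Aqp4, -3.75 to 0.41 for Lcn2, -2.56 to 0.25 for Pck1, -0.34 to 0.36 for ccdc198, -0.49 to 0.18 for Fth1 and -1.09 to 0.26 for Slc25a39. Run differences were followed under the alternatives for a set of genes that left out Wnt9b, Avpr2, Hspa8 and Atf3. No gene of that set changed sign, and 474 of these values kept their side of the threshold, 112 lost the call and 3 gained it. The cause was not tested for these changes. With 53 to 132 principal cells in each of 5 libraries, low genes rest on a few cells. The 95% intervals of KO over WT differed in width between genes, for example -0.62 to 0.85 for Avpr2 and -2.08 to 1.62 for Aqp2. These come from the fit without run. For Aqp2 the SE was 0.81 in that fit and 0.19 with run as a term.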
